A study of Mus musculus with 9 samples.

Results

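The Hox genes other than Hoxc13 were followed in whole skin of 30-day-old mice. A gene was included where at least 1 probe set of the array named it alone and its symbol read Hox, a cluster letter from a to d and a number. This rule gave 30 genes, measured by 36 probe sets, of the 12393 genes that had a score. The groups were the transgenic lines L60, L84 and LA with 2 arrays each and the control mice, LC, with 3 arrays. Each array received 1 pool of skin RNA, all groups were of mixed C57BL, DBA and FVB strain, and 30 mg of skin went into each extraction. The series title names constitutively active Akt, a kinase that acts below growth factor receptors. The labels do not give the promoter that drives the transgene, how the 3 lines differ, how many mice entered a pool or which body site the skin came from. Since nothing says that the pools came from separate animals, p-values measure only the spread between these pools.

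Hox genes encode homeodomain transcription factors that lie in 4 chromosomal clusters. Their number along the cluster, the paralogue number, runs with the place on the body axis where they are used, with low numbers towards the head and high numbers towards the tail and the ends of the limbs. Adult dermal fibroblasts keep a Hox pattern that differs with body site, which is why the genes are often read as an address of the skin. Hoxc13 stands apart in skin because it acts in the hair follicle, where it switches on hair keratin genes, and it is shown here only for comparison.

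Of the 39 Hox genes in the gene table used for names, the 30 members covered Hoxa with 9 of 11 genes on chromosome 6, Hoxb with 9 of 10 on chromosome 11, Hoxc with 5 of 9 on chromosome 15 and Hoxd with 7 of 9 on chromosome 2. The Hoxa members were Hoxa2, Hoxa3, Hoxa4, Hoxa5, Hoxa7, Hoxa9, Hoxa10, Hoxa11 and Hoxa13. The Hoxb members were Hoxb1, Hoxb2, Hoxb3, Hoxb4, Hoxb5, Hoxb6, Hoxb7, Hoxb9 and Hoxb13. The Hoxc members were Hoxc4, Hoxc5, Hoxc6, Hoxc8 and Hoxc9, and the Hoxd members Hoxd1, Hoxd8, Hoxd9, Hoxd10, Hoxd11, Hoxd12 and Hoxd13. All 30 members were tested, since no filter on low values was applied.

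The deposited value of a probe set is a score with mean 0 and SD 1 over the 9 arrays, so a difference is in SDs and carries no expression level and no fold. The site of the skin can therefore not be read from which Hox genes are on, and the scores compare only one pool with another. For the same reason the labelled tissue could not be checked by the level of skin markers. The 11 scored hair shaft genes, which mark skin with growing hair, all fell in L84 and in LA relative to LC by the test used for the members. With 1 array left out, 2 to 10 of them were called in L84 and 5 to 11 in LA. Their mean score was 0.123 and 0.364 on the L60 arrays, -1.07 and -0.93 on the L84 arrays, -0.977 and -0.91 on the LA arrays, and between 1.11 and 1.18 on the LC arrays. The 18S ribosomal RNA controls were high on LC 1, L60 1 and L84 1, at 0.339 to 2.09, and between -0.642 and -0.528 on the other arrays. LA 2 and L84 1 had the widest scores, their SD over all genes being 1.20 and 1.13, and those of the other arrays 0.675 to 0.836. Set means and counts are also given without these arrays where they moved, and so are some single genes. A gene without such a value can have moved too. Without LA 2 and L84 1 the LA difference of Hoxb3 from LC was 0.0722, against 1.22 over all arrays. The L84 difference was then 0.287 for Hoxa13, against -0.726, and 2.47 for Hoxb1, against 0.900. In whole skin, fewer cells of a type and less RNA per cell cannot be told apart.

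**Figure D1:**
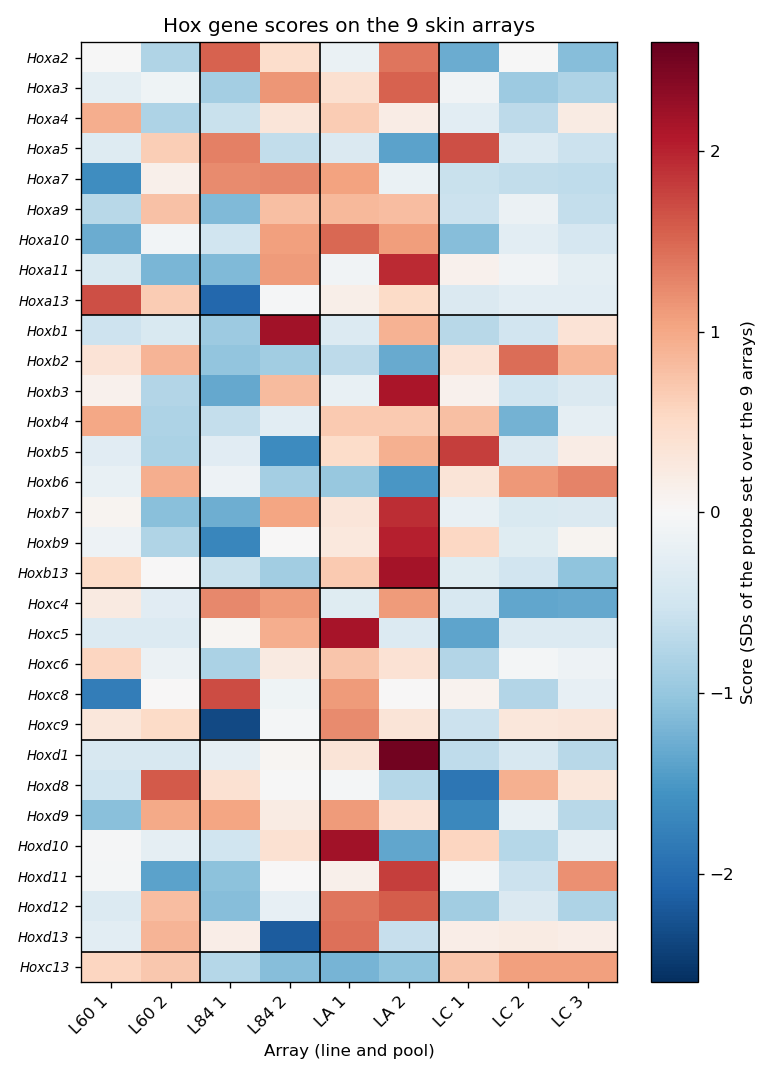
Scores of the 30 Hox genes and of Hoxc13 (rows, ordered by cluster and paralogue number) on the 9 arrays (columns, ordered L60, L84, LA, LC), in SDs of the probe set, from blue (low) to red (high). Most rows are red in the LA columns, while Hoxb2, Hoxb6 and Hoxc13 are blue in L84 and LA and red in LC.

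No Hox member passed the test in any comparison. With limma's linear model and Benjamini-Hochberg adjustment over 12393 genes, 0 of 30 members were called in L60 against LC (0.0% of all genes called), in L84 against LC (0.565% of all genes) and in LA against LC (1.8% of all genes). Moderated variance called 0 of all 12393 genes in every comparison, so its count of 0 members says nothing of them. At an unadjusted p under 0.05 stood 0 members in L60, 4 in L84 and 7 in LA, or 0%, 13.3% and 23.3% of members, beside 4.72%, 12.2% and 20.8% of all genes. These shares lay near those of all genes. The smallest adjusted p of a member in limma's model was 0.192 for L84, at Hoxb2, and 0.0932 for LA, at Hoxd12. For L60 every member's adjusted p was 1 after rounding. The direction of the differences was less even. In LA 26 of 30 members (86.7%) had a higher mean than in LC, beside 56.1% of all genes. In L84 the count was 20 of 30 beside 50.1%, and in L60 16 of 30 beside 54.8%. The median member difference from LC was 0.154 in L60, 0.0792 in L84 and 0.952 in LA, where the medians of all genes were 0.0777, 0.00308 and 0.247.

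Hoxb2 and Hoxb6 had the lowest differences from LC in LA, and both were lower in L84 too. Hoxb2, which in the mouse embryo helps to pattern the hindbrain, scored 0.361 and 0.886 in L60, -1.03 and -0.913 in L84, -0.676 and -1.31 in LA, and 0.359, 1.46 and 0.864 in LC. Hoxb6, from the middle of the same cluster, scored -0.19 and 0.953 in L60, -0.127 and -0.884 in L84, -0.982 and -1.51 in LA, and 0.326, 1.13 and 1.28 in LC. For both genes all arrays of L84 and of LA lay below all LC arrays, and the L60 arrays overlapped them. Hoxb2 differed from LC by -1.87 ± 0.399 (SE) in L84 and by -1.89 ± 0.399 in LA, with limma adjusted p-values of 0.192 and 0.0953. Hoxb6 differed by -1.42 ± 0.517 in L84 and by -2.16 ± 0.517 in LA, with limma adjusted p-values of 0.386 and 0.118. Neither gene was called. In the mean of the 3 lines against LC the same model gave Hoxb2 -1.34 ± 0.309 with an adjusted p of 0.193, and 0 of 30 members were called (0.637% of all genes).

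Hoxc13, the hair follicle gene set aside by the rule, had the same order of groups. It scored 0.566 and 0.701 in L60, -0.743 and -1.12 in L84, -1.21 and -1.05 in LA, and 0.718, 1.07 and 1.08 in LC. It was called lower in L84, by -1.88 ± 0.17 with a limma adjusted p of 0.0291, and in LA, by -2.09 ± 0.17 with an adjusted p of 0.0135. With 1 array left out, its adjusted p ran up to 0.164 in L84, where 1 of 9 such fits called it, and up to 0.0926 in LA, where 5 of 9 did. Its differences were close in size to those of Hoxb2, while its SE was smaller. The hair shaft genes named above were low on the same arrays, and their part in the Hoxb2 and Hoxb6 values was not tested. Without the 3 arrays high in 18S, Hoxb2 differed from LC by -2.08 in L84 and -2.16 in LA, and Hoxb6 by -2.09 and -2.45, and neither was called by limma there.

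**Figure D2:**
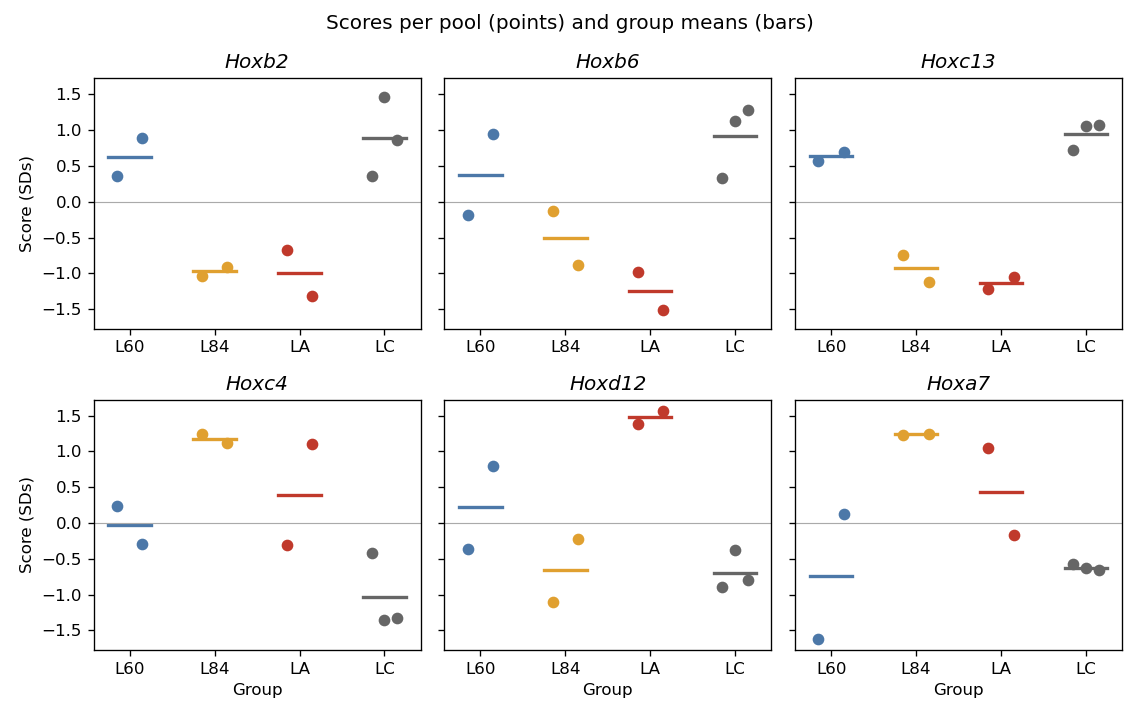
Scores in SDs (vertical axis) of 6 Hox genes in each pool (points) with the group mean (bar), for L60, L84, LA and LC. In the upper row Hoxb2, Hoxb6 and Hoxc13 lie below LC in every L84 and LA pool; in the lower row Hoxc4 lies above LC in all 6 pools of the lines, Hoxd12 in LA and L60, and Hoxa7 in L84 and LA.

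Hoxc4 was the only member with all 6 arrays of the lines above all 3 LC arrays, a pattern that 458 genes (3.70%) showed. It scored 0.236 and -0.288 in L60, 1.24 and 1.11 in L84, -0.307 and 1.1 in LA, and -0.422, -1.36 and -1.32 in LC. The L84 pools were the highest and close to each other, and LA 1 exceeded LC 1 by little. The difference from LC was 1.01 ± 0.533 in L60, 2.21 ± 0.533 in L84 and 1.43 ± 0.533 in LA, with limma adjusted p-values of 1, 0.229 and 0.227. Without LA 2 and L84 1 the LA difference was 0.726, and over left-out arrays it ran up to 2.14. No member had all 6 arrays of the lines below LC, a pattern that 369 genes (2.98%) showed.

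In LA, 13 of 30 members (43.3%) had both arrays above all LC arrays, where 27.8% of all genes did, and 2 members (6.67%), Hoxb2 and Hoxb6, had both below, where 21.0% of all genes did. The 13 were Hoxa3, Hoxa7, Hoxa9, Hoxa10, Hoxa13, Hoxb7, Hoxb13, Hoxc4, Hoxc6, Hoxc9, Hoxd1, Hoxd9 and Hoxd12. For Hoxa3 and Hoxc6 this held for the mean over their probe sets but not in every probe set. Without the 3 arrays high in 18S the count above was 18, beside 34.5% of all genes, and without LA 2 and L84 1 it was 18, beside 40.9%. LA 2 was the highest of the 9 arrays for 9 members (30.0%, beside 21.1% of all genes) and LA 1 for 8 others (26.7%, beside 12.8%). LA 1 was the lowest array for 0 members, beside 6.41% of all genes, and LA 2 for Hoxa5, Hoxb2, Hoxb6 and Hoxd10. Over the 30 members the scores of LA 1 and LA 2 had a Pearson r of -0.0792, beside 0.229 over all genes, a description over genes that are not independent.

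The LA members of largest difference came from opposite ends of the clusters. Hoxd12, which acts in the growth of digits, scored -0.356 and 0.798 in L60, -1.1 and -0.217 in L84, 1.39 and 1.57 in LA, and -0.9, -0.374 and -0.801 in LC. Hoxb13, the last gene of its cluster and one used in the tail, scored 0.497 and 0.00993 in L60, -0.576 and -0.905 in L84, 0.678 and 2.16 in LA, and -0.317, -0.495 and -1.06 in LC. The LA pools of these genes were above every LC and every L84 pool, and their L60 pools were also above LC. For Hoxd12, L60 1 exceeded LC 2 by little, at -0.356 against -0.374. Hoxd12 differed from LC in LA by 2.17 ± 0.453 with a limma adjusted p of 0.0932, and Hoxb13 by 2.04 ± 0.512 with an adjusted p of 0.126. The Hoxb13 difference was 1.30 without LA 2 and L84 1. Hoxd1, at the head end of the Hoxd cluster and known for a role in pain-sensing neurons of the mouse, scored -0.422 and -0.426 in L60, -0.233 and 0.0476 in L84, 0.343 and 2.51 in LA, and -0.669, -0.426 and -0.726 in LC. Its LA pools were both high but far apart, and the difference from LC was 2.03 ± 0.638 with a limma adjusted p of 0.175. Leaving out LA 1 took Hoxd1 to 3.12 with an adjusted p of 0.0241, where 1.49% of all genes were called. That value rests on the single pool LA 2, assumed to vary like the other groups. Leaving out LA 2 took Hoxd1 to 0.950, and the highest adjusted p with 1 array left out was 0.389. Hoxa10, which patterns the lumbar spine, scored -1.28 and -0.0663 in L60, -0.516 and 1.07 in L84, 1.5 and 1.09 in LA, and -1.1, -0.267 and -0.434 in LC. It was highest in LA 1 and differed from LC by 1.90 ± 0.643 with an adjusted p of 0.198 in limma's model.

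The RefSeq promoter table (GRCm38.p6) held 20 promoters of 18 of the 30 members, and those of Hoxc4, Hoxd12 and Hoxd1 are shown. The window is the 250 bases before an annotated transcription start on the gene's own strand. For Hoxd12 and Hoxd1 this is the start of the gene. For Hoxc4 it lies inside the gene's span, chr15:103018097-103036856, so the window is not the one before the start of the gene. Capitals mark the motifs searched on both strands. The core box TATAAA and the upstream box read as CCAAT are general promoter elements. The pair site of Hox with Pbx proteins was read as TGATNNAT and the homeodomain core as TAATTA, and a GC-rich palindrome as GGCGCC. No motif overlaps another in the windows shown. Hoxc4 is shown as the member above LC in every pool of the lines, Hoxd12 as the member of smallest p in LA and Hoxd1 as its counterpart from the other end of the same cluster. The windows lie on the plus strand at chr15:103034145-103034394 (Hoxc4), chr2:74674763-74675012 (Hoxd12) and chr2:74762730-74762979 (Hoxd1).
Hoxc4: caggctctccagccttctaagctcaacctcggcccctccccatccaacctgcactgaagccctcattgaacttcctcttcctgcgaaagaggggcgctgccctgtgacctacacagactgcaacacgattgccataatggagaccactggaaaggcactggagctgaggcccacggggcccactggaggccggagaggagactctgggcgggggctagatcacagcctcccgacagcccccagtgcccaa
Hoxd12: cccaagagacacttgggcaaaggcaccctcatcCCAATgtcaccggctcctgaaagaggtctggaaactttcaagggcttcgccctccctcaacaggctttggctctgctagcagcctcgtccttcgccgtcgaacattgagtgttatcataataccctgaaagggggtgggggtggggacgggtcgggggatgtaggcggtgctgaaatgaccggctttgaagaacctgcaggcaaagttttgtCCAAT
Hoxd1: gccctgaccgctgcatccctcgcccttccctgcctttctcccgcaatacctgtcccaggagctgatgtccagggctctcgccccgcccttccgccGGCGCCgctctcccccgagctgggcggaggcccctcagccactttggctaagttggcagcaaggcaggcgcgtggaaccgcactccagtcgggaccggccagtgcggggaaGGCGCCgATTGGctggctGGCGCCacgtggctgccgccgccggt
The Hoxc4 window held none of the motifs, Hoxd12 held CCAAT 2 times, and Hoxd1 held GGCGCC 3 times and CCAAT 1 time as its reverse complement. The 3 windows held 8, 10 and 24 CpG dinucleotides in this order, so the Hoxd1 window was the richest. Among the members' promoters 10 of 20 (50%) held CCAAT and 4 of 20 (20%) held GGCGCC, where 33.8% and 9.59% of the 32851 promoters in the table did. TGATNNAT was in 3 member promoters (15%, beside 7.68%), TATAAA in 2 (10%, beside 12.4%) and TAATTA in 2 (10%, beside 4.84%). The median CpG number was 13 in the members' windows and 6 in all windows.

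By paralogue number, all 12 members numbered 9 to 13 were higher in LA than in LC, as were 9 of 12 members numbered 4 to 8 and 5 of 6 numbered 1 to 3. Single members of the first set turned with 1 array left out, to -0.0179 for Hoxa11, -1.21 for Hoxd10, -0.0593 for Hoxd11 and -0.773 for Hoxd13. The mean score of the members numbered 9 to 13 was -0.158 and 0.0792 in L60, -0.914 and 0.0191 in L84, 0.902 and 0.886 in LA, and -0.349, -0.245 and -0.22 in LC. Both LA arrays were above the 3 LC arrays, and the mean difference was 1.17, where the SD of the LC arrays was 0.0685 and the residual SD over all groups 0.308. It was 1.13 without the 3 arrays high in 18S, and 1.17 without LA 2 and L84 1. The members numbered 4 to 8 had means of -0.191 and -0.0834 in L60, 0.186 and 0.111 in L84, 0.456 and 0.0868 in LA, and -0.0653, -0.344 and -0.155 in LC. The members numbered 1 to 3 had means of -0.126 and -0.261 in L60, -0.486 and 0.624 in L84, -0.109 and 1.19 in LA, and -0.382, -0.156 and -0.297 in LC. In this set LA 2 alone was far from LC, and leaving out LA 2 and L84 1 took the LA difference to 0.17, against 0.819 over all arrays. Paralogue groups 9 to 13 differed from LC in LA by 1.17, 1.23, 0.886, 2.17 (Hoxd12 alone) and 0.97. Groups 1, 3 and 7 had differences as large, of 1.29, 1.40 and 1.25, with all their members higher. Within clusters the LA difference did not run one way with the number. Its Spearman rho was -0.25 over the Hoxa members, 0.5 over Hoxb, -0.9 over the 5 Hoxc members and -0.0357 over Hoxd. In the same order rho was -0.533, -0.05, -0.9 and -0.857 for L84, and -0.05, -0.05, -0.5 and -0.143 for L60. These rho values are given as a description.

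**Figure D3:**
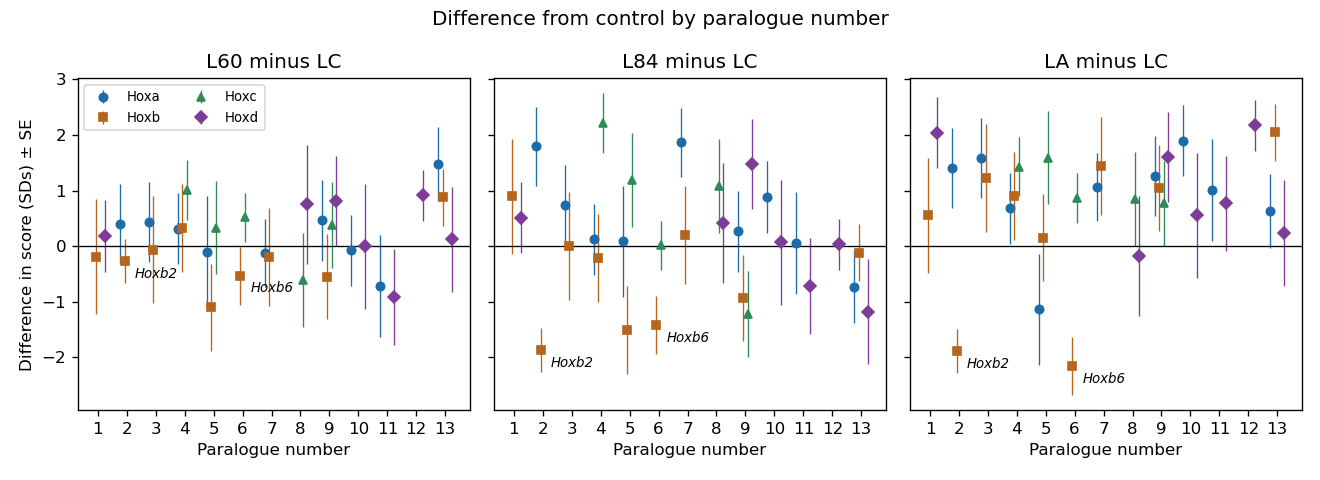
Difference in score from LC (vertical axis, SDs, with the SE of limma's model as bars) against paralogue number (horizontal axis) for L60, L84 and LA, with 1 symbol per cluster. In LA all members from 9 to 13 lie above 0, Hoxb2 and Hoxb6 lie near -2, and in L84 the members spread from -1.87 to 2.21.

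By cluster, every cluster mean was higher in LA than in LC over all arrays. The Hoxa mean was -0.221 and -0.0831 in L60, -0.248 and 0.608 in L84, 0.442 and 0.657 in LA, and -0.278, -0.379 and -0.498 in LC. The Hoxc mean was -0.216 and -0.0561 in L60, -0.0377 and 0.421 in L84, 0.984 and 0.294 in LA, and -0.602, -0.448 and -0.34 in LC. All pools of the lines had a higher Hoxa and Hoxc mean than all LC pools. The Hoxd mean was -0.395 and 0.313 in L60, -0.19 and -0.247 in L84, 0.934 and 0.505 in LA, and -0.639, -0.162 and -0.12 in LC. The Hoxb mean was 0.0988 and -0.309 in L60, -0.877 and -0.0606 in L84, 0.0232 and 0.878 in LA, and 0.302, -0.137 and 0.0829 in LC. Hoxd was above LC in both LA pools, whereas Hoxb was so in LA 2 only, and its LA difference of 0.368 became -0.0592 without LA 2 and L84 1. The differences of LA from LC were 0.934 for Hoxa, 1.10 for Hoxc and 1.03 for Hoxd.

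Hoxa5, which the mouse needs for lung growth, scored -0.329 and 0.644 in L60, 1.32 and -0.641 in L84, -0.368 and -1.39 in LA, and 1.68, -0.359 and -0.561 in LC. Hoxd8 scored -0.527 and 1.58 in L60, 0.4 and -0.00287 in L84, -0.0432 and -0.749 in LA, and -1.88, 0.92 and 0.302 in LC. These 2 genes and the pair Hoxb2 and Hoxb6 were the 4 members lower in LA, and for Hoxa5 and Hoxd8 the LA pools overlapped LC. The LA difference was -1.13 for Hoxa5 and -0.18 for Hoxd8. With 1 array left out it ran between -1.64 and -0.417 for Hoxa5 and between -1.01 and 0.395 for Hoxd8. The 12 members not given on every array here differed from LC by -0.547 (Hoxb9) to 0.52 (Hoxc6) in L60, by -1.18 (Hoxd13) to 1.19 (Hoxc5) in L84 and by 0.237 (Hoxd13) to 1.59 (Hoxc5) in LA. For several of them the LA pools lay far apart. Hoxd10, a gene of lumbar motor neurons, scored 2.19 and -1.35 in LA, and Hoxd13, a gene of the digits, 1.43 and -0.592. Hoxc5 scored 2.15 and -0.356 in LA, and the second of these equalled the score of 4 other arrays. Hoxa9, known from blood stem cells, was closer between pools as a mean of 2 probe sets. It scored 0.84 and 0.808 in LA against -0.567, -0.153 and -0.61 in LC. The LA pools lay apart in each probe set, at 0.628 and 1.81 in one and at 1.05 and -0.188 in the other.

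In L84, 6 of 30 members had both arrays above all LC arrays, beside 13.8% of all genes, and 2 had both below, beside 14.7%. Those above were Hoxa2, Hoxa7, Hoxc4, Hoxc5, Hoxd1 and Hoxd9, and those below were Hoxb2 and Hoxb6. Hoxa7, a trunk gene, scored -1.62 and 0.124 in L60, 1.24 and 1.24 in L84, 1.05 and -0.168 in LA, and -0.579, -0.63 and -0.661 in LC. Its L84 pools were nearly equal, and the difference from LC was 1.86 ± 0.614 with a limma adjusted p of 0.35. With only the L84 and LC arrays in the fit, Hoxa7 alone was called, with an adjusted p of 0.0192, where 0.153% of all genes were called and the spread of the L60 and LA pools no longer entered. Hoxa2, which sets the identity of a pharyngeal arch, scored -0.0121 and -0.779 in L60, 1.53 and 0.451 in L84, -0.179 and 1.39 in LA, and -1.28, -0.0121 and -1.11 in LC. Hoxd9, a gene of the limb and lower back, scored -1.09 and 0.99 in L60, 1.03 and 0.203 in L84, 1.1 and 0.363 in LA, and -1.68, -0.188 and -0.721 in LC. Both lay above LC in L84, Hoxa2 by 1.79 ± 0.71 and Hoxd9 by 1.48 ± 0.81. Without the 3 arrays high in 18S these differences were 1.01 and 0.658.

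The L84 members of lowest difference beside Hoxb2 and Hoxb6 were Hoxb5 and Hoxc9, and neither was separate from LC. Hoxb5, which acts in the neural crest of the gut, scored -0.292 and -0.813 in L60, -0.292 and -1.63 in L84, 0.469 and 0.926 in LA, and 1.8, -0.37 and 0.197 in LC. Hoxc9, a gene of thoracic vertebrae and motor neurons, scored 0.286 and 0.503 in L60, -2.35 and -0.0591 in L84, 1.24 and 0.336 in LA, and -0.554, 0.286 and 0.318 in LC. The low Hoxc9 value came from L84 1, which was the lowest of all arrays for 9 members (30.0%, beside 21.5% of all genes). The Hoxc9 difference in L84 was -1.22, and -0.0756 without L84 1. The Hoxb5 difference in L84 ran between -2.17 and -0.836 with 1 array left out. L84 1 and L84 2 differed over the members as a whole, with a mean score of -0.388 and 0.177, and over the members numbered 9 to 13 with -0.914 and 0.0191. Without L84 2 the number of members higher in L84 was 11, and without the 3 arrays high in 18S, L84 1 among them, it was 21. The mean L84 difference over all members was 0.134 with all arrays and 0.415 without those 3.

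L60 had 4 of 30 members with both arrays above LC, beside 14.4% of all genes, and 1 with both below, beside 10.8%. Those above were Hoxa13, Hoxb13, Hoxc4 and Hoxd12, and the one below was Hoxa11. Hoxa13, a gene of the digits and the lower gut, scored 1.68 and 0.666 in L60, -2.05 and -0.0212 in L84, 0.158 and 0.488 in LA, and -0.383, -0.27 and -0.27 in LC. It was the highest L60 difference among members, 1.48 ± 0.66, with a limma adjusted p of 1, and 0.936 without the 3 arrays high in 18S. Hoxa11, which helps to form the bones of the forearm and has an antisense RNA at its locus, scored -0.401 and -1.19 in L60, -1.14 and 1.11 in L84, -0.0954 and 1.95 in LA, and 0.114, -0.0954 and -0.251 in LC. Hoxd11, its partner in the forearm, scored -0.0576 and -1.39 in L60, -1.06 and 0.00733 in L84, 0.134 and 1.79 in LA, and -0.0576, -0.55 and 1.19 in LC. Hoxa11 differed from LC in L60 by -0.72 and Hoxd11 by -0.92, and the Hoxd11 pools overlapped LC. Hoxa11 ran between -1.11 and -0.323 with 1 array left out, and Hoxd11 was at -1.71 without the 3 arrays high in 18S. Hoxc8, a gene of thoracic vertebrae, scored -1.8 and 0.00319 in L60, 1.69 and -0.117 in L84, 1.11 and 0.00319 in LA, and 0.0931, -0.765 and -0.216 in LC, and its pools lay far apart within each line. The 3 members numbered 13 had a mean difference from LC of 0.827 in L60 with 3 of 3 higher, of -0.673 in L84 with 0 of 3 higher, and of 0.97 in LA with 3 of 3 higher.

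Between the lines 0 of 30 members were called by limma without moderated variance, in L84 against L60 (0.113% of all genes called), LA against L60 (0.629%) and LA against L84 (0.0161%). At an unadjusted p under 0.05 stood 3, 4 and 2 members, beside 8.03%, 16.2% and 10.6% of all genes. In L84 against L60 these were Hoxa7 at 1.99, Hoxa13 at -2.21 and Hoxb2 at -1.60. In LA against L60 they were Hoxa10 at 1.97, Hoxd1 at 1.85, Hoxb2 at -1.62 and Hoxb6 at -1.63. In LA against L84 they were Hoxb13 at 2.16 and Hoxd12 at 2.14, both from the tail end of their clusters. The smallest limma adjusted p among these was 0.197, at Hoxb2 in LA against L60. Hoxc13 was called lower in LA than in L60, by -1.77 with a limma adjusted p of 0.0413, and in 2 of 9 fits with 1 array left out. Both LA arrays lay above both L60 arrays for 12 members (26.8% of all genes) and below for 4 (23.7%). Both LA arrays lay above both L84 arrays for 12 members (20.0% of all genes) and below for 4 (13.6%), and both L84 arrays above both L60 arrays for 5 (12.0%) and below for 4 (17.5%). The F test over the 4 genotypes, in limma without moderated variance, called 0 members and 0.734% of all genes. In it 5 members (16.7%) had an unadjusted p under 0.05, beside 14.8% of all genes.

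Members of 1 cluster did not follow each other closely from pool to pool on average, but single pairs did. Pairs of the same cluster ran from a Pearson r of -0.75, for Hoxb6 with Hoxb7, to 0.965, for Hoxb3 with Hoxb7. Pairs of different clusters reached as far, from -0.873, for Hoxb2 with Hoxc4, to 0.961, for Hoxa11 with Hoxb7. The mean pairwise Pearson r over the 9 arrays was 0.15 within Hoxa, 0.14 within Hoxb, 0.14 within Hoxc and 0.11 within Hoxd, and 0.12 over all 435 pairs of members, beside 0.01 over all pairs of genes. After the genotype means were taken out, the mean over the 435 pairs was 0.02. These values are descriptions over arrays that share genotype and RNA quality. Of the 5 members with several probe sets, Hoxa4 had probe sets that differed from LC in LA by 1.82 and -0.456, and Hoxc6 by 0.942, 1.47 and 0.193. The Hoxa3 probe sets were closer, at 1.41 and 1.75, but in the first LA 1 at 0.018 lay below LC 1 at 0.851. In the first Hoxc6 probe set LA 2 at 0.121 lay below LC 2 at 0.322. In the third Hoxc6 probe set LA 2 at -0.251 lay below LC 1 at 0.198. Counted by probe set, 31 of 36 were higher in LA than in LC, beside 53.9% of all probe sets that name 1 gene. Values equal within 1e-06 on some arrays occurred in 14 of the 36 probe sets (38.9%), beside 44.3% of all probe sets, and most often in Hoxc5, where 5 arrays were equal.

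Genes that work with or upstream of Hox genes gave few calls. Over all genes 0% were called in L60, 0.565% in L84 and 1.8% in LA against LC. In LA 56.1% of all genes were higher than in LC, with a median difference of 0.247. Of the 8 scored cofactors of the Pbx, Meis and Pknox families, which bind DNA with Hox proteins, 0 were called against LC in any line and 6 were higher in LA, with a median difference of 0.836. Meis2 differed from LC in LA by 2.0 with a limma adjusted p of 0.203, and Pknox1 by -1.48 with 0.322. Of the 19 scored Polycomb and trithorax regulators, which keep Hox clusters silent or active, 0 were called in any line and 5 were higher in LA, with a median of -0.267. Ezh2, the histone methyltransferase of Polycomb, scored 1.58 and 0.775 in L60, -0.113 and -0.636 in L84, -1.32 and -1.34 in LA, and 0.922, 0.251 and -0.113 in LC. Both LA pools lay below LC, and the difference was -1.69 with a limma adjusted p of 0.12. Men1, a trithorax cofactor, differed by -1.67 with 0.165. Of the 16 scored genes of retinoid signalling and Cdx factors, inputs to Hox genes in the embryo, Rxrg was called higher in L84 and LA. Rxrg, a retinoid receptor, scored -1.45 and -0.859 in L60, 1.07 and 0.992 in L84, 0.942 and 1.06 in LA, and -0.583 on all 3 LC arrays. It differed from LC by 1.61 ± 0.176 in L84 with a limma adjusted p of 0.0485, and by 1.58 ± 0.176 in LA with 0.0287. The equal LC values of Rxrg narrow the spread that its test uses, and 2 of 9 fits with 1 array left out called it in each of these comparisons.

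Positional factors outside the Hox clusters and fibroblast genes stood at scores like those of the members numbered 9 to 13 on some arrays. The 17 scored positional factors, which mark limb, trunk or face skin, had a mean of -0.164 and 0.0685 in L60, -0.888 and 0.0659 in L84, 0.789 and 0.774 in LA, and 0.0101, -0.456 and -0.2 in LC. In LA 13 of 17 were higher than in LC, beside 56.1% of all genes, with a median of 1.11, beside 0.247 over all genes. Tbx3, a T-box factor of the limb and mammary gland, was the one called, at 1.17 ± 0.12 with a limma adjusted p of 0.0238 in LA, and in 2 of 9 fits with 1 array left out. It scored -0.843 and -0.7 in L60, -0.246 and -0.141 in L84, 1.21 and 0.965 in LA, and -0.0133, -0.246 and 0.0161 in LC. The 9 scored fibroblast markers, among them Col1a1, Dcn and Dpt, had a mean of -0.0457 and 0.601 in L60, -1.73 and 0.825 in L84, 0.805 and 0.462 in LA, and between -0.511 and 0.0863 in LC. All 9 were higher in LA than in LC, with a median of 0.827, and 0 were called. The largest of these differences were 1.66 at Dcn and 1.41 at Dpt. The lowest fibroblast mean was on L84 1, which was also the lowest array for the members numbered 9 to 13. L84 2 had the highest fibroblast mean and a mean of only 0.0191 for those members. The low place of L84 1 was not particular to these lists. It was also the lowest array for smooth muscle (-1.54), macrophage (-1.46) and kidney or gut markers (-1.20), the last being of cells that skin should lack. It was the highest array for skeletal muscle (1.21) and basal keratinocyte markers (1.36). The 12 skeletal muscle markers averaged -1.19 and -0.452 in L60, 1.21 and 0.192 in L84, 0.81 and 0.562 in LA, and between -0.464 and -0.332 in LC, with 0 called. Over all genes 0.565% were called in L84 and 1.8% in LA against LC. Of 5 scored melanocyte genes, 2 were called lower in L84 and 3 in LA, and of 7 basal keratinocyte genes 2 were called higher in each of these lines. Each of these calls was lost in some fits with 1 array left out. Lists of other cell types went both ways in LA. Of 6 scored adipocyte markers 2 were higher than in LC, with a median of -0.975. Of 6 dermal papilla markers 2 were higher, with a median of -0.664, and of 6 endothelial markers 3, with a median of 0.0751. All 6 lymphocyte markers were higher, with a median of 1.60 and means of 1.24 and 0.748 in LA and of -0.383, -0.826 and -0.488 in LC. All 7 macrophage markers were higher, with a median of 1.08 and means of 0.987 and 0.418 in LA and of -0.474, -0.240 and -0.297 in LC. All 3 Schwann cell markers were higher, with a median of 1.78, and Mbp, a myelin protein, was called, in 4 of 9 fits with 1 array left out. The part of these cell types, of fibroblasts or of muscle in the Hox differences was not tested. A score has no 0 level, so it cannot say whether a marker was absent.

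**Figure D4:**
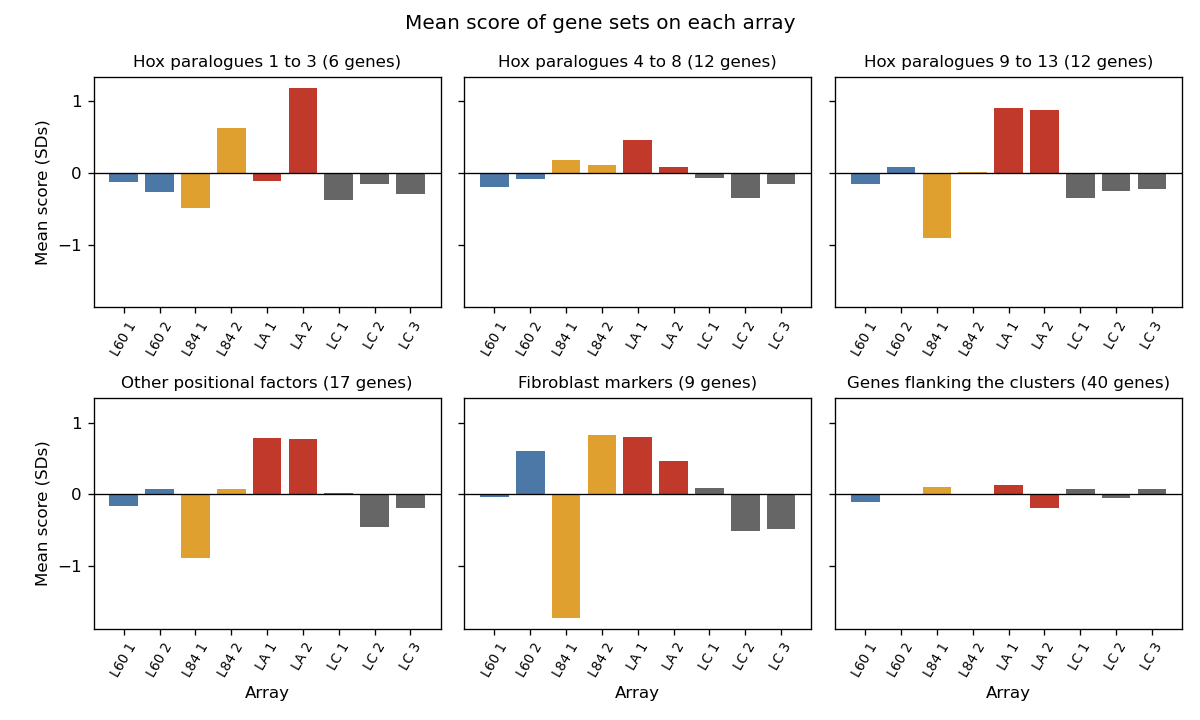
Mean score in SDs (vertical axis) on each array (horizontal axis, L60, L84, LA, LC) for Hox members numbered 1 to 3, 4 to 8 and 9 to 13, for 17 other positional factors, 9 fibroblast markers and 40 genes that flank the Hox clusters. The members numbered 9 to 13 and the positional factors are high on both LA arrays and low on L84 1, the fibroblast markers are lowest on L84 1, and the flanking genes stay near 0.

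The genes that flank the clusters did not share the LA pattern as a set. Of the 40 nearest scored genes, 5 on each side of each cluster, 0 were called in any line, 22 were higher in LA than in LC, and the median difference was -0.125 in L60, -0.123 in L84 and 0.109 in LA. Their mean score stayed between -0.194 and 0.135 on all 9 arrays. Over all genes 56.1% were higher in LA than in LC, and the medians were 0.0777 in L60, 0.00308 in L84 and 0.247 in LA. Called over all genes were 0% in L60, 0.565% in L84 and 1.8% in LA. Single flanking genes differed by as much as Hox members, with Ttc30b at 2.14 and Mtx2 at -2.21 in LA. Both are among the 5 scored genes on one side of the Hoxd cluster, and their limma adjusted p-values were 0.158 and 0.103.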

How the data were processed

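Whole-skin RNA pools were measured on 9 Affymetrix arrays. The deposited values are a score per probe set with mean 0 and SD 1 over the arrays (row means within 1.9e-07 of 0, range -2.66 to 2.67); RMA is named, without a version, per the submitters' processing notes. Scale before standardising and array build are not given in the sources used here. Probe sets that named 1 gene (20380 of 22690) were averaged into scores of 12393 genes. Group means were fitted over 9 arrays (5 residual degrees of freedom) with limma 3.58.1 in R 4.3.3 without variance moderation. A gene passed where its p, adjusted by Benjamini and Hochberg, was under 0.05. The code was tested on simulated data with large shifts, which does not measure power for differences of the size seen here. Means over members carry no test.

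Members and lists were chosen with earlier results of these data known. Values on every array are given for the 4 highest and 4 lowest members of each line against LC, for called members and for Hoxc13. Other lists give called genes or the largest differences. The number of arrays limits the precision. Alternatives were leaving out arrays, moderated variance, array weights, array medians set to 0, single probe sets, only the arrays compared and replicate number as a block. Whether replicate numbers pair the pools was not decided. Deviations of same-numbered pools from their group means correlated between -0.0833 and 0.345. Within a line the deviations of the pools mirror each other. Between lines, r for different-numbered pools is therefore fixed as the opposite of r for same-numbered pools (-0.345 and 0.345 for L84 with LA). These values cannot show whether pools of the same number were handled together. The means over all members and by range of paralogue number, the counts of higher and of separate members, and the alternatives for them were added after seeing the data.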

Additional observations from a re-analysis of the deposited data

Results flagged for a closer look

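Of 4 probe sets at Hox loci outside the 30 members, 2 had both LA pools above all LC pools. A probe set that names both Hoxd4 and Hoxd3, and so entered no gene score, had scores of 0.567 and 2.14 in LA and of -0.77, -0.139 and 0.398 in LC, a difference of 1.52. The other probe set of the same pair of genes differed by -0.528, so the pair gave no common direction. A probe set that names both Hoxb8 and Hoxb7 had scores of -1.02 and 1.84 in LA and of 0.371, 0.322 and 0.239 in LC, a difference of 0.102. Hoxa11os, the antisense RNA at Hoxa11, had scores of 1.66 and 1.09 in LA and of -0.225, -0.12 and -0.573 in LC, a difference of 1.68. Both LA pools of Hoxa11os lay above all LC pools, whereas those of Hoxa11 itself, -0.0954 and 1.95, overlapped LC. Whether the probes of Hoxa11 and Hoxa11os tell the strands apart was not tested. No group had enough arrays for a test of single outlying pools.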

How the results depend on the processing

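Beside left-out arrays, 217 alternative values kept their result and 25 moved. With the replicate number as a block, 0 members were called in every comparison and 0 of 32 block values moved. This cannot tell whether pools of the same number share a batch. Every group holds the replicate numbers other than that of LC 3, so block mean differences equal those without LC 3. For Hoxd in L84 both were 0.182. The block fits called at most 0.0242% of all genes, so their count of 0 members says little. Where a line keeps 1 array, that array is assumed to vary like the other groups, and the cause of the moves was not tested. Only the arrays of the groups compared gave 1 called member in L84 against LC (Hoxa7, beside 0.153% of all genes). Leaving out LA 1 gave 1 (Hoxd1) in LA against LC (1.49% of all genes) and in LA against L60 (0.524%), so left-out arrays gave 0 to 1 there. The number of members higher in LA was 23 to 26 over left-out arrays, and the mean difference of the members numbered 9 to 13 was 1.13 to 1.19. The number higher in L84 was 11 to 20.

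Without the 3 arrays high in 18S, the L84 difference was 1.05 for Hoxa, -0.0334 for Hoxb, 0.415 for all members and 0.252 for those numbered 9 to 13. Members separate above LC then numbered 14 in L60 and 19 in L84 (41.7% and 40.6% of all genes), and separate below 9 and 7 (35.5% and 43.7%), with fewer arrays to overlap. Without LA 2 and L84 1, the L84 difference was 0.993 for Hoxa, 0.416 for all members, 0.291 for 9 to 13 and 0.903 for 1 to 3, with 17 members above (33.9% of all genes) and 5 below (35.6%). The LA difference was then -0.0592 for Hoxb, 1.45 for Hoxc, 0.644 for 4 to 8 and 0.17 for 1 to 3. Medians over members gave 0.265 for Hoxa, 1.08 for Hoxc and 0.159 for 4 to 8 in L84, and 0.900 for Hoxb and 0.86 for 4 to 8 in LA. Array medians set to 0 gave 2 members below LC in L60 (14.9% of all genes).

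Over left-out arrays, differences ran from 0.137 to 0.993 for Hoxa in L84, -0.0592 to 0.796 for Hoxb in LA, 0.757 to 1.45 for Hoxc in LA and -0.0879 to 0.62 for Hoxd in L60. They ran from -0.149 to 0.416 for all members in L84, -0.642 to 0.291 for 9 to 13 in L84 and 0.275 to 0.644 for 4 to 8 in LA. For 1 to 3 they ran from -0.208 to 0.903 in L84 and 0.17 to 1.47 in LA. Members above LC numbered 4 to 11 in L60 (14.4% to 32.5% of all genes) and 6 to 17 in L84 (13.8% to 36.4%). Members below numbered 1 to 7 in L60 (10.8% to 27.6%), 2 to 13 in L84 (14.7% to 37.2%) and 2 to 5 in LA (21.0% to 35.7%).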
